A study of Mus musculus with 6 samples.

Results

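The genes described here are 10 long non-coding RNA (lncRNA) genes, listed by name and found in the count files by Ensembl ID through the GENCODE vM39 annotation. All 10 were present among the 47643 gene IDs of the files and all 10 were among the 15792 that passed the filter on low counts. They were put into 2 classes. *Neat1*, *Malat1* and *Kcnq1ot1* are retained in the nucleus, and *Gas5*, *Snhg1*, *Snhg3*, *Snhg5*, *Snhg8*, *Snhg12* and *Zfas1* are host genes of small nucleolar RNAs (snoRNAs). The genes were chosen with their values on both days known, so the differences between the days below are a description of them and carry no test.

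Long non-coding RNAs are transcribed and mostly polyadenylated like messenger RNAs but encode no known protein. *Neat1* is the scaffold of paraspeckles, *Malat1* collects in nuclear speckles where splicing factors are stored, and *Kcnq1ot1* silences neighbouring imprinted genes on the paternal chromosome. The snoRNA host genes work differently: their introns carry snoRNAs, which guide chemical modification and cleavage of ribosomal RNA, while the spliced exons are exported and, for several hosts, degraded when ribosomes meet an early stop codon.

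RNA was taken from mouse submandibular salivary gland organoids (mSGOs), epithelial structures grown in Matrigel from C57BL/6 mice of 8 to 12 weeks. Every culture was non-irradiated and untreated, in WRY medium with Wnt3a- and R-spondin1-conditioned medium, EGF, FGF2, insulin, dexamethasone and the kinase inhibitor Y27632. Organoids of 3 mice were collected after 5 and after 7 days, giving 3 libraries per day, and each mouse contributed to both days. Libraries were made from poly(A) RNA with a 3′-end kit (Lexogen QuantSeq), so a count is a read near a poly(A) tail, or near another stretch of A that the oligo(dT) primer can bind, and is not scaled by transcript length. Levels are counts per 1000000 (CPM) of the TMM-scaled library size, and levels are compared between the days within a gene. Where a gene is called the most abundant of a list, this refers to its mean CPM and not to an amount per transcript length.

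The libraries held between 1918198 and 2837397 counts in genes, and a count of 0 allows up to 1.06 to 1.56 CPM. Reads that the counting assigned to no feature made up 13.3% to 14.0% of the reads in the deposited counts at day 5. At day 7 they made up 8.67% to 9.36%. The feature type counted is not stated, so reads in introns of annotated genes may be among them. Counts in mitochondrially encoded protein genes were 2.60% to 2.72% of gene counts at day 5, and at day 7 they were 2.26% in mouse 1, 0.926% in mouse 2 and 0.924% in mouse 3. The common biological coefficient of variation was 0.0900 at day 5 and 0.290 at day 7, so day 7 values are less precise. The 7 epithelial markers summed to 14330 to 18110 CPM at day 5 and 11420 to 15810 CPM at day 7. Markers of other cells were near 0: 5 of 8 macrophage markers (*Csf1r*, *Adgre1*, *Lyz2*, *C1qa* and *C1qb*) had no count and the list summed to 8.03 to 10.7 CPM at day 5 and 9.30 to 13.9 CPM at day 7, 2 of 6 endothelial markers (*Cdh5* and *Tek*) had no count and the list reached 1.00 CPM, and 3 of 6 fibroblast markers (*Col1a2*, *Col3a1* and *Lum*) had no count and the list summed to 0.360 to 0.502 CPM at day 5 and 1.04 to 1.96 CPM at day 7. Of these markers *Krt8*, an epithelial keratin, fell from a mean of 109 to 69.2 CPM (edgeR adjusted p = 0.0374), and the macrophage marker *Cd68* rose from 1.00 to 5.28 CPM (edgeR adjusted p = 0.0151). Both calls were lost without the day 5 library of mouse 2 or 3 or the day 7 library of mouse 2, and that of *Krt8* also without the day 5 library of mouse 1. Their part in the results below was not tested. In bulk RNA, fewer cells of a type and less RNA per cell cannot be told apart.

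Because the assay reads the 3′ end, the ends of the transcripts decide what can be counted. Long *Neat1* and *Malat1* are known to end without a poly(A) tail, in a triple helix formed by U-rich stretches and an A-rich tract that is encoded in the genome. The last 100 bases of both genes up to the end of that tract are shown because both belong to the nuclear-retained class and share this kind of end. They were read from GRCm39, minus strand, at chr19:5874736-5874835 for *Neat1* and chr19:5846010-5846109 for *Malat1*, with the A-rich tract in capitals.
Neat1: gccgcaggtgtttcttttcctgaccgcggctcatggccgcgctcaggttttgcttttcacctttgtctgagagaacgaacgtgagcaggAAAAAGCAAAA
Malat1: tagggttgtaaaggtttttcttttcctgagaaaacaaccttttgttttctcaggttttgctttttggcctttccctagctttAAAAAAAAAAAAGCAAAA
Both windows contain the same 16 bases (CTCAGGTTTTGCTTTT) and the same 13 bases (TTTCTTTTCCTGA). The last 11 bases (AAAAAGCAAAA) are the same by construction. The end of the *Malat1* window was placed where the last 11 bases of *Neat1* were found in that gene, which was at 1 position. *Neat1* also has a short form with a conventional poly(A) site, and *Kcnq1ot1*, *Gas5*, *Snhg1* and *Zfas1* end behind a poly(A) signal. These annotated ends are shown because a 3′-end kit primes at poly(A) tails, 60 bases each, with the signal hexamer in capitals. For *Kcnq1ot1* the end is that of the canonical transcript. For the other genes it is the most common annotated end, among the short transcripts in the case of *Neat1*. Only counts per gene were available, so where the reads lie was not examined. The windows are chr19:5892327-5892386, minus strand, for short *Neat1*, chr7:142731562-142731621, minus strand, for *Kcnq1ot1*, chr1:160866050-160866109, plus strand, for *Gas5*, chr19:8703748-8703807, plus strand, for *Snhg1* and chr2:166907723-166907782, plus strand, for *Zfas1*.
Neat1 short: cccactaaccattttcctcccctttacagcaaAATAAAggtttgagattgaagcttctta
Kcnq1ot1: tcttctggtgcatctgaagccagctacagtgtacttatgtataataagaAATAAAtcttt
Gas5: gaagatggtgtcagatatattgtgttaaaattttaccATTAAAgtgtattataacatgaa
Snhg1: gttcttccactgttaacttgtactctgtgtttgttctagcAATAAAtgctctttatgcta
Zfas1: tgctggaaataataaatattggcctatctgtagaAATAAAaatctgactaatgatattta
Counts per gene do not separate the short from the long *Neat1* form. On the transcribed strand, runs of at least 8 A numbered 32 in the 118926 bases of *Kcnq1ot1*, 16 in the 28295 bases of *Snhg5*, 1 in the 7886 bases of *Malat1* and 0 in the 22397 bases of *Neat1*. That of *Malat1* lies in its A-rich tract shown above. Whether reads came from such runs was not tested.

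The other end of the hosts is shown for a feature known from this kind of gene. Many host transcripts start with a C followed by a run of C and T, the 5′ terminal oligopyrimidine tract that ribosomal protein messengers also carry. For each host the 35 bases from 5 before to 29 after the most common annotated start are given (among equally common starts the furthest upstream, as for *Snhg3*, where each start belongs to 1 of 5 transcripts), with the letters CTTT in capitals where they occur in the stretch from 5 bases before to 15 bases from the start.
Gas5: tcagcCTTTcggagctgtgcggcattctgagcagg
Zfas1: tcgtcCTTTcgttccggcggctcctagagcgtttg
Snhg12: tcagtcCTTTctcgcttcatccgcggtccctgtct
Snhg5: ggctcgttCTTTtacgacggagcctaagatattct
Snhg8: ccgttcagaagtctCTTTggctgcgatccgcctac
Snhg1: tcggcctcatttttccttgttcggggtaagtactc
Snhg3: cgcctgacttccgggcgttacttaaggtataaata
On GRCm39 the windows are chr1:160862731-160862765 on the plus strand (*Gas5*), chr2:166905137-166905171 on the plus strand (*Zfas1*), chr4:132035982-132036016 on the plus strand (*Snhg12*), chr9:88404915-88404949 on the minus strand (*Snhg5*), chr3:123301963-123301997 on the minus strand (*Snhg8*), chr19:8700846-8700880 on the plus strand (*Snhg1*) and chr4:132080968-132081002 on the minus strand (*Snhg3*). CTTT was found in 5 of the 7 hosts, against 8.83% of 54654 lncRNA and protein-coding genes searched in the same stretch on the sense strand alone. The letters were chosen after the windows had been read, so this share is a description. The letters alone do not make a terminal tract. *Snhg5* starts with a G, and *Snhg8* has A and G between its start and CTTT. *Gas5* and *Zfas1* both hold CTTT from base 1 of the start shown, which belongs to 80 of 229 and 8 of 31 transcripts. *Snhg12* holds it from base 2, behind a C, and *Snhg5* and *Snhg8* hold it from bases 4 and 10. A relation of these positions to the levels given below was not tested.

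The 3 nuclear-retained members were all lower in 7-day mSGOs. This describes these 3 genes and not nuclear-retained lncRNAs in general. *Xist*, also retained in the nucleus but not a member, had a log2 fold change of -0.15 ± 0.19 (SE, n = 3 per day). *Neat1* (ENSMUSG00000092274) is a single-exon gene at chr19:5874736-5897132 on the minus strand. Its level at day 5 was 577 CPM in mouse 1, 401 CPM in mouse 2 and 636 CPM in mouse 3. At day 7 it was 96.3, 165 and 145 CPM in the same order. Every day 7 library lay below every day 5 library, and the day 5 mean was 3.97 times the day 7 mean. The fitted log2 fold change (day 7 over day 5) was -1.99 ± 0.23 (SE, n = 3 per day). Within mice the log2 ratio was -2.57, -1.27 and -2.12, smallest in mouse 2.

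*Malat1* (ENSMUSG00000092341) is the next gene on the same strand, at chr19:5845717-5853602, also with a single exon. It measured 8320, 6137 and 7885 CPM at day 5 for mice 1, 2 and 3 and 1867, 3817 and 2687 CPM at day 7. The days did not overlap, and the fitted log2 fold change was -1.42 ± 0.24 (SE, n = 3 per day). As for *Neat1*, mouse 2 had the lowest day 5 level and the highest day 7 level, with a log2 ratio of -0.68 against -2.16 in mouse 1 and -1.55 in mouse 3. *Malat1* held 0.637% to 0.844% of all counts in genes at day 5 and 0.176% to 0.388% at day 7.

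*Kcnq1ot1* (ENSMUSG00000101609) spans chr7:142731402-142850327 on the minus strand, inside the protein-coding gene *Kcnq1* on the plus strand. Its level was 43.3, 44.7 and 35.3 CPM at day 5 and 8.44, 6.60 and 7.34 CPM at day 7. The day 7 values rest on 22, 19 and 15 reads. The days did not overlap, the day 5 mean was 5.51 times the day 7 mean, and the log2 fold change of -2.45 ± 0.27 (SE, n = 3 per day) was the lowest of the 10 genes. Its log2 ratio within mice was -2.25, -2.62 and -2.15, closer together than for *Neat1* and *Malat1*. The share of reads assigned to no feature moved with these falls, from a mean of 13.6% to 8.94%. Its part in them was not tested.

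**Figure D1:**
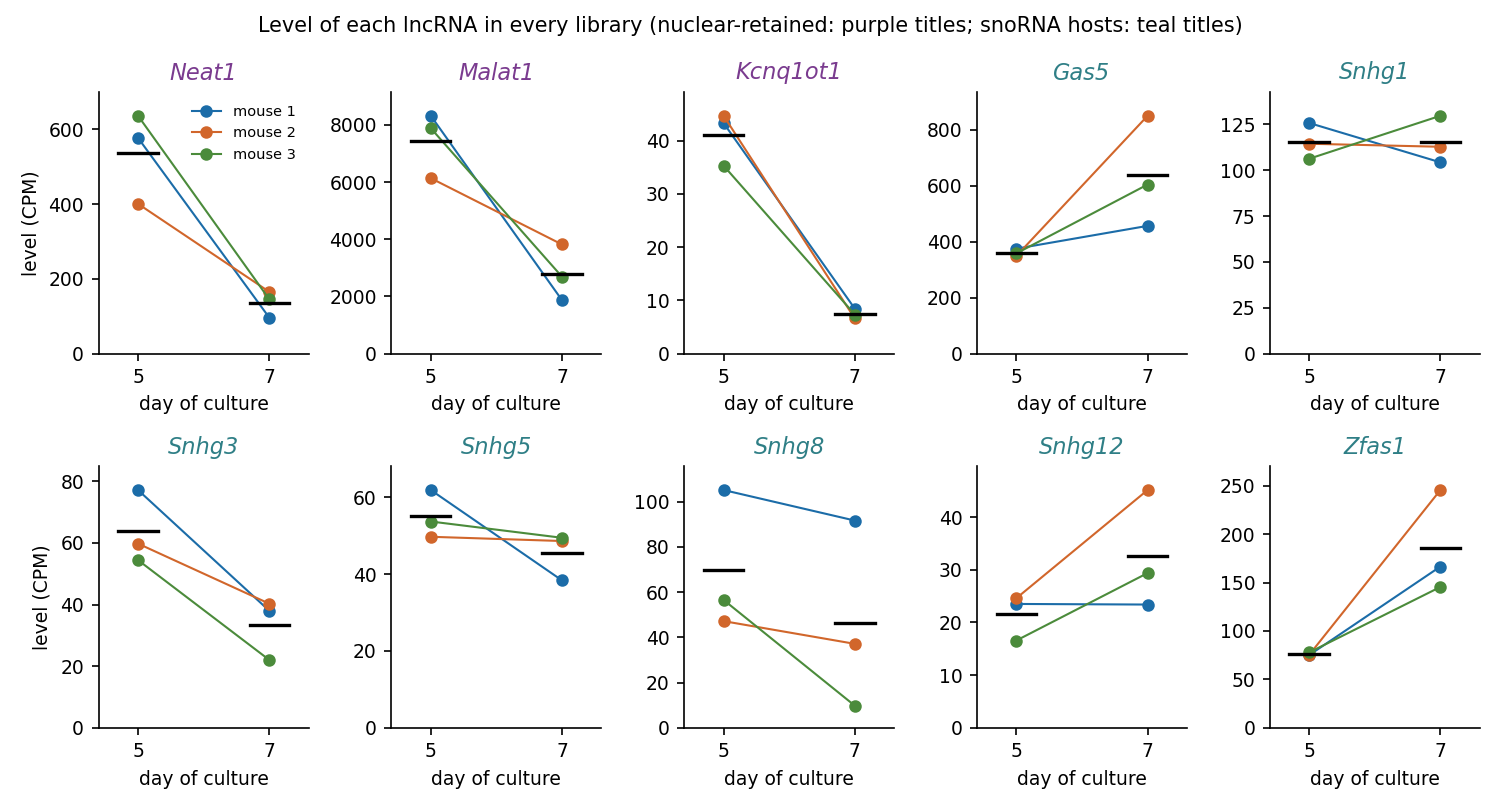
Level of each of the 10 lncRNAs in every library, in CPM on linear axes that start at 0, against day of culture; points of a mouse are joined and black bars are day means (n = 3). *Neat1*, *Malat1* and *Kcnq1ot1* lay lower at day 7 in each mouse, *Gas5* and *Zfas1* lay higher in each mouse, and *Snhg8* spread most between mice.

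Among the snoRNA hosts the levels went both ways. *Zfas1* (ENSMUSG00000074578, chr2:166903619-166907799, plus strand), which carries 3 annotated snoRNA genes, was at 75.1, 75.3 and 77.8 CPM at day 5 and at 166, 245 and 145 CPM at day 7. The day 7 mean was 2.44 times the day 5 mean, with no overlap and a log2 fold change of 1.29 ± 0.21 (SE, n = 3 per day). *Gas5* (ENSMUSG00000053332, chr1:160861793-160866118, plus strand), named for its accumulation in growth-arrested cells and host of 10 annotated snoRNA genes, was at 375, 349 and 358 CPM at day 5 and at 456, 850 and 604 CPM at day 7. The days did not overlap, and the log2 fold change was 0.82 ± 0.22 (SE, n = 3 per day). Without the day 7 library of mouse 2 it was 0.56, below the fold threshold of 0.6, and the call was also lost without the day 5 library of mouse 1, 2 or 3.

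*Snhg3* (ENSMUSG00000085241, chr4:132075325-132080997, minus strand), host of the paired *Snora73a* and *Snora73b* that act in ribosomal RNA cleavage, was the 1 host past the threshold lower. Its level was 77.1, 59.7 and 54.4 CPM at day 5 and 38.0, 40.3 and 22.0 CPM at day 7. The days did not overlap, and the log2 fold change was -0.92 ± 0.25 (SE, n = 3 per day). The call was lost without the day 5 library of mouse 1, 2 or 3. *Snhg3* shares 633 exonic bases with *Rcc1* on the same strand, so reads of the 2 genes may have been divided between them or left uncounted. Other hosts share exonic bases with a gene on the opposite strand, *Gas5* 134 with *Zbtb37*, *Snhg1* 743 with *Slc3a2* and *Zfas1* 196 with *Znfx1*, and their counts are uncertain to that extent.

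The remaining 4 hosts did not pass the threshold. *Snhg1* (ENSMUSG00000108414, chr19:8700319-8703812, plus strand), with 8 annotated snoRNA genes, was at 126, 114 and 106 CPM at day 5 and at 104, 113 and 130 CPM at day 7. Its days overlapped and its means were 116 ± 9.80 and 116 ± 12.9 CPM (SD, n = 3). *Snhg5* (ENSMUSG00000097195, chr9:88377321-88405615, minus strand), host of *Snord50a* and *Snord50b*, was at 61.9, 49.7 and 53.7 CPM at day 5 and at 38.4, 48.6 and 49.4 CPM at day 7. It was lower at day 7 in each mouse, and its lowest day 5 value, 49.7 CPM, lay just above its highest day 7 value, 49.4 CPM, with a log2 fold change of -0.28 ± 0.21 (SE, n = 3 per day). *Snhg12* (ENSMUSG00000086290, chr4:132035905-132038762, plus strand), with 5 annotated snoRNA genes, was at 23.5, 24.6 and 16.6 CPM at day 5 and at 23.4, 45.1 and 29.4 CPM at day 7. Only mouse 1 had no higher level at day 7, the days overlapped, and the log2 fold change of 0.61 ± 0.28 (SE, n = 3 per day) was 0.29 without the day 7 library of mouse 2, and 0.81 and past the threshold without that of mouse 1.

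*Snhg8* (ENSMUSG00000104960, chr3:123301192-123302578, minus strand), host of *Snora24*, differed most between mice. It was at 105, 47.2 and 56.6 CPM at day 5 and at 91.7, 37.1 and 9.79 CPM at day 7 for mice 1, 2 and 3. Mouse 1 was the highest on both days, and each mouse had a lower value at day 7, but the days overlapped. The log2 fold change of -0.58 ± 0.46 (SE, n = 3 per day) was -0.13 without the day 7 library of mouse 3, -0.15 without the day 5 library of mouse 1 and -1.52 without the day 7 library of mouse 1. With the mouse as a block in the fit it was -0.86 and past the threshold.

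Set side by side, all 3 nuclear-retained genes were past the threshold lower at day 7 with no overlap, at a median log2 fold change of -1.99 and a range of -2.45 to -1.42. Of the 7 hosts, 2 were past the threshold higher (*Gas5* and *Zfas1*) and 1 lower (*Snhg3*), at a median of 0.0003 and a range of -0.92 to 1.29. Over all 10 genes, 6 were past the threshold, 2 higher and 4 lower, beside 12.0% of the 15792 genes tested (7.22% higher and 4.82% lower). In 7 of the 10, the days did not overlap, 2 higher and 5 lower, beside 30.9% of genes tested (15.4% higher and 15.5% lower). Since this contrast chose the genes, nothing is read from these counts. Among the 994 lncRNA genes tested, 21 were higher and 38 lower at a median of -0.18, and among the 52 of these that averaged 10 CPM or more, 7 were higher and 12 lower.

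**Figure D2:**
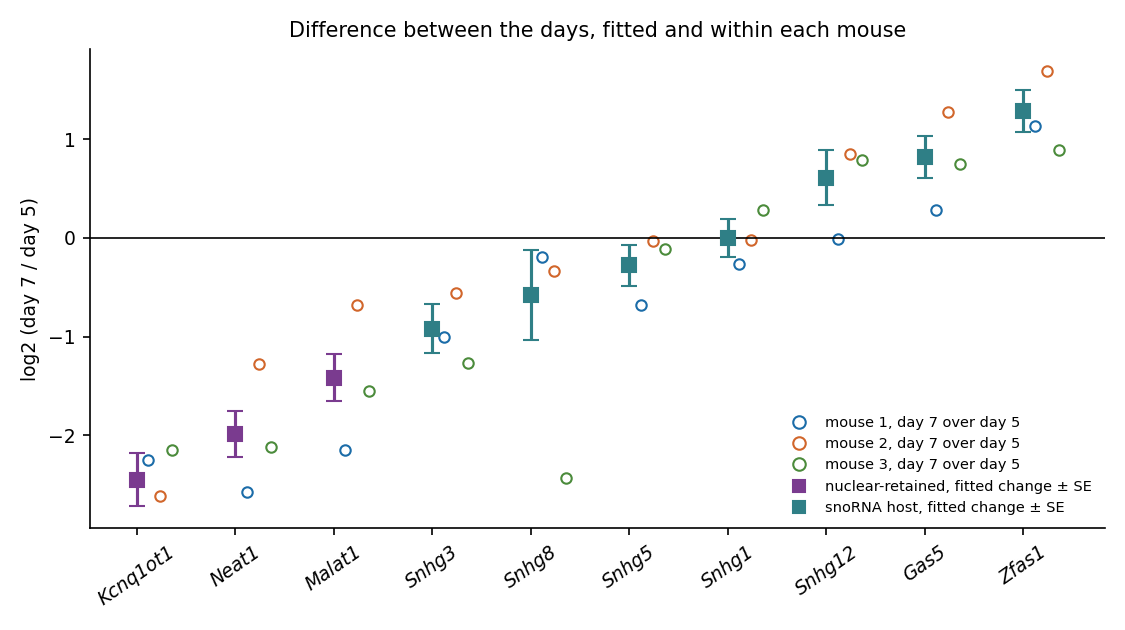
Difference between the days on the log2 scale: squares are the fitted change of day 7 over day 5 with its SE (n = 3 per day), purple for the nuclear-retained genes and teal for the snoRNA hosts, and open circles are the ratio within each mouse. The nuclear-retained genes take the 3 lowest fitted values, -2.45 to -1.42, and the hosts run from -0.92 to 1.29, with mouse 3 far below the other mice for *Snhg8*.

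The balance between the classes can be followed in each library. The summed level of the nuclear-retained genes was 8940, 6582 and 8556 CPM at day 5 and 1972, 3989 and 2840 CPM at day 7, while that of the hosts was 844, 720 and 723 CPM at day 5 and 919, 1379 and 990 CPM at day 7. The ratio of the sums went from 10.5 ± 1.34 to 2.64 ± 0.424 (SD, n = 3), and it was lower at day 7 in each mouse. *Malat1* and *Gas5* take the largest share of these sums, and without both the ratio went from 1.45 ± 0.338 to 0.316 ± 0.0850 (SD, n = 3). The ratio does not depend on the scaling between libraries, because both sums come from the same library.

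**Figure D3:**
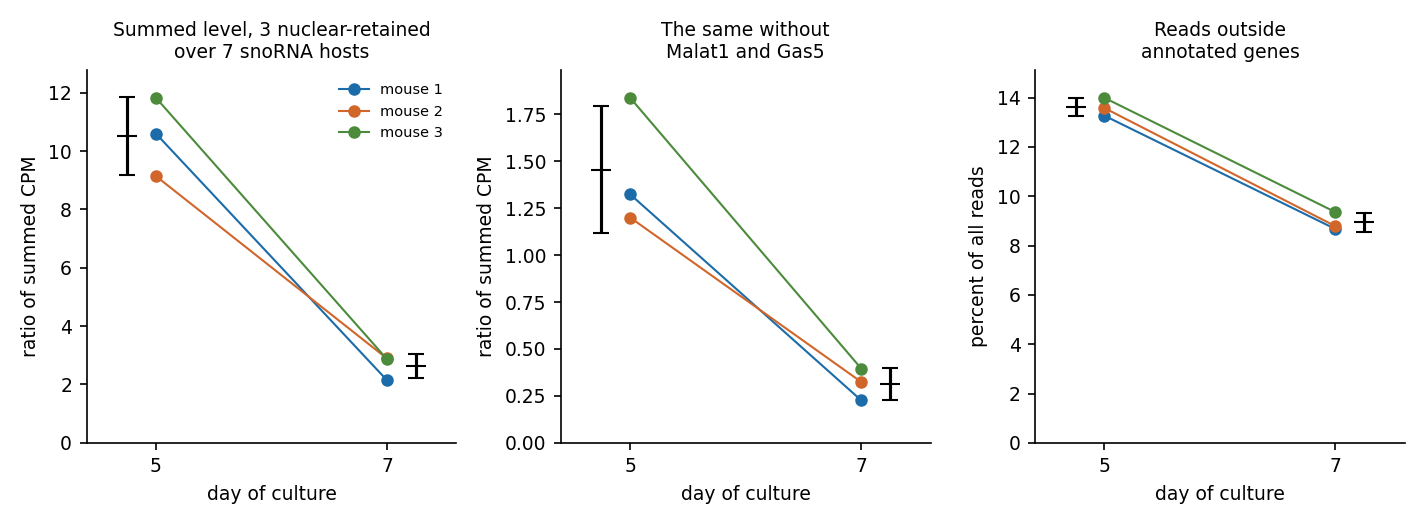
Summed CPM of the 3 nuclear-retained genes over that of the 7 snoRNA hosts (left) and the same without *Malat1* and *Gas5* (middle). At right is the percent of reads that the counting assigned to no feature, headed there as reads outside annotated genes. Points are libraries by day of culture, joined by mouse, and bars beside them are means with SD (n = 3). All 3 quantities were lower at day 7 in each mouse, the first from a mean of 10.5 to 2.64 and the last from 13.6% to 8.94%.

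The spread between mice within a day was not used to choose the genes. It is given as the coefficient of variation over 3 mice, beside the median over genes within 1.5 times the same mean level. All 10 had a larger value at day 7 than at day 5, as did the median of genes of like level. *Zfas1* went from 2.00% at day 5 to 28.4% at day 7, with medians of 7.76% and 19.2%, and *Gas5* from 3.65% to 31.2%, with medians of 6.53% and 20.0%. *Kcnq1ot1* was at 12.3% and 12.4%, with medians of 13.5% and 25.5%. Counting error alone would give 7.40% for *Zfas1* and 3.40% for *Gas5* at day 5 and 23.1% for *Kcnq1ot1* at day 7, so the low values of *Zfas1* and *Kcnq1ot1* are below what counting allows to be resolved. *Neat1* and *Malat1* were already spread at day 5, at 22.8% and 15.5% against medians of 6.66% and 6.10%. *Snhg8* stood out on both days, at 44.7% and 90.2% against medians of 9.99% and 21.0%, where counting error alone would give 7.70% and 9.05%. With 3 mice these values are rough, and no test was run on them.

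**Figure D4:**
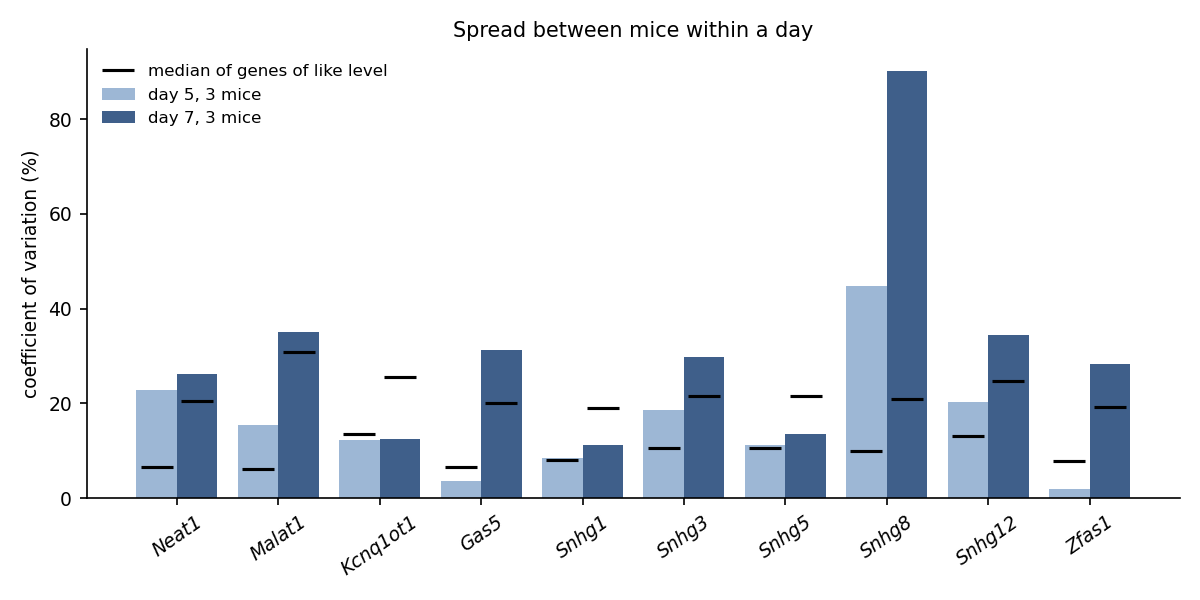
Coefficient of variation of the level over the 3 mice of a day, in percent, for each lncRNA (pale bars day 5, dark bars day 7), with black ticks at the median of genes of like level on that day. *Snhg8* has the tallest bars on both days, 44.7% and 90.2%, and *Kcnq1ot1* has bars of about the same height on both, 12.3% and 12.4%.

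The protein partners of the nuclear-retained genes were looked at next, from lists of genes that do not include the members. Calls in this and the later lists stand beside 12.0% of all genes tested, 7.22% higher and 4.82% lower. That share differs with level: 3.82% of lncRNAs were past the threshold lower, and 23.1% of those that averaged 10 CPM or more. The lists are not matched for level. Of 19 paraspeckle proteins tested, 4 fell (*Ewsr1*, *Tardbp*, *Hnrnph1* and *Dazap1*) and 15 did not pass, at a median log2 fold change of -0.40, against -0.0073 over all genes tested. *Hnrnph1*, a splicing regulator, was at 151, 84.9 and 90.8 CPM at day 5 and 59.5, 45.1 and 53.8 CPM at day 7, and the fitted log2 difference was -1.04 ± 0.24 (SE; adjusted p by edgeR 0.00638). *Ewsr1*, an RNA-binding protein, went from a mean of 96.4 to 52.2 CPM (edgeR adjusted p = 0.00832), and *Tardbp*, which encodes TDP-43, from 232 to 130 CPM (edgeR adjusted p = 0.00874). Without the day 5 library of mouse 1, 2 or 3 the list had 0, 1 and 3 calls, and without the day 7 library of mouse 2 it had 1. The call of *Hnrnph1* was lost without the day 5 library of mouse 1 or the day 7 library of mouse 2, that of *Ewsr1* without the day 5 library of mouse 1 or 2, and that of *Tardbp* without any of these 3 libraries.

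Nuclear speckle proteins, which gather where *Malat1* is found, had more calls. Of 19 tested, 13 fell and 6 did not pass, at a median log2 fold change of -0.70. *Srsf11*, a splicing factor with an arginine- and serine-rich domain, was at 478, 481 and 471 CPM at day 5 and at 171, 167 and 194 CPM at day 7, and the fitted log2 difference was -1.43 ± 0.18 (SE; adjusted p by edgeR 4.46e-05). *Clk1*, the kinase that phosphorylates such factors, went from a mean of 133 to 58.1 CPM (edgeR adjusted p = 0.000678), and *Rbm25*, a splicing regulator, from 715 to 331 CPM (edgeR adjusted p = 0.000973). The calls of *Srsf11*, *Clk1* and *Rbm25* held in each of the 15 alternatives run. *Srrm1*, a splicing coactivator that did not pass, was at 668 and 545 CPM (edgeR adjusted p = 0.310). The list had 4, 5 and 5 calls without the day 5 library of mouse 1, 2 and 3, and 7 without the day 7 library of mouse 2.

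The genes of the imprinted domain around *Kcnq1ot1* were measured because several of them are silenced by it. Of 13 listed, 10 could be tested, and *Phlda2* was the 1 that passed, at a median of 0.04 for the list. That is 10.0% of those tested, near the 12.0% over all genes tested. *Phlda2*, an imprinted growth-limiting gene, was at 34.6, 48.7 and 41.1 CPM at day 5 and 27.6, 15.6 and 7.34 CPM at day 7 (log2 fold change -1.27 ± 0.33, SE, edgeR adjusted p = 0.0161), the same direction as *Kcnq1ot1*. Its call was lost without the day 5 library of mouse 2 or 3 and without the day 7 library of mouse 2. *Cdkn1c*, which encodes the cell cycle inhibitor p57, was at a mean of 6.54 CPM and 10.8 CPM (edgeR adjusted p = 0.216), and *Cd81*, a tetraspanin gene, at 275 CPM and 256 CPM (edgeR adjusted p = 0.799). *Kcnq1*, the potassium channel gene that contains *Kcnq1ot1*, was at 16.5, 16.6 and 19.5 CPM at day 5 and 16.5, 30.9 and 47.0 CPM at day 7. Its fitted log2 difference, 0.83 ± 0.32 (SE; adjusted p by edgeR 0.0997), did not pass, while with the mouse as a block it was 0.76 (edgeR adjusted p = 0.0487) and the list had 2 calls. *Kcnq1* and *Kcnq1ot1* share 834 exonic bases on opposite strands, and no source used here says whether counting used strand, so reads there cannot be assigned to either gene with certainty. Without the day 5 library of mouse 2 or 3, or the day 7 library of mouse 2, the list had 0 calls, and without the day 7 library of mouse 1 or 3 it had 2. *Cdkn1c* and *Kcnq1* were named after their values were seen.

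Chromatin and DNA methylation factors linked to such silencing moved in both directions. Of 8 tested, *Ehmt2* rose, *Dnmt1* and *Uhrf1* fell and 5 did not pass, at a median of -0.29. *Uhrf1*, which recruits the maintenance methyltransferase, went from a mean of 41.4 to 21.8 CPM (edgeR adjusted p = 0.0228), and *Dnmt1*, that enzyme, from 134 to 78.0 CPM (edgeR adjusted p = 0.0250). *Ehmt2*, a histone methyltransferase, went from 24.4 to 49.2 CPM (edgeR adjusted p = 0.0303). *Ezh2*, the catalytic subunit of a Polycomb complex, was at 220 and 181 CPM (edgeR adjusted p = 0.374). The list had 0 calls without any 1 of the day 5 libraries or without the day 7 library of mouse 2.

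Proteins that bind and mature the snoRNAs of the hosts were the next list. Of 16 snoRNP proteins and assembly factors tested, 7 fell and 9 did not pass, at a median log2 fold change of -0.83. *Nop56* and *Nop58*, core proteins of box C/D snoRNPs, went from means of 125 to 45.2 CPM (edgeR adjusted p = 0.000246) and of 449 to 200 CPM (edgeR adjusted p = 0.000612). *Nolc1*, a snoRNP chaperone of the nucleolus, was at 207, 214 and 196 CPM at day 5 and 78.6, 71.9 and 98.4 CPM at day 7 (log2 fold change -1.31 ± 0.19, SE, edgeR adjusted p = 0.000213). *Nop10*, a small core protein of box H/ACA snoRNPs, was at 214 and 195 CPM (edgeR adjusted p = 0.713). The calls of *Nop56*, *Nop58* and *Nolc1* held in each of the 15 alternatives, and the list had 4, 3 and 4 calls without the day 5 library of mouse 1, 2 and 3 and 4 without the day 7 library of mouse 2.

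Other genes that host snoRNAs were compared with the 7 hosts. Of 14 other lncRNA hosts listed, 11 were found and tested, and *Epb41l4aos* and *Snhg18* rose while *Snhg17* fell, at a median of -0.42. *Epb41l4aos*, an antisense lncRNA, was at 28.0, 41.7 and 36.0 CPM at day 5 and 76.7, 114 and 97.4 CPM at day 7 (log2 fold change 1.45 ± 0.23, SE, edgeR adjusted p = 0.000355), and its call held in each of the 15 alternatives. *Snhg17* (edgeR adjusted p = 0.0467) and *Snhg18* (edgeR adjusted p = 0.0481) lost theirs in 6 and 10 of the 15. *Snhg9*, the most abundant of those that did not pass, was at 32.2 and 24.2 CPM (edgeR adjusted p = 0.320). With the mouse as a block the list had 5 calls, *Snhg14* (log2 fold change -1.24, edgeR adjusted p = 0.0120) and *Snhg15* (-0.98, edgeR adjusted p = 0.0139) being added. The list had 1 call without any 1 of the day 5 libraries or without the day 7 library of mouse 2.

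Of 25 protein-coding hosts tested, 6 fell, 1 rose and 18 did not pass, at a median of -0.31. Those that fell include *Nop56*, *Nop58* and *Dkc1*, which are also in the snoRNP list, so the lists are not independent. *Gnl3*, which encodes nucleostemin, fell from a mean of 259 to 97.3 CPM (edgeR adjusted p = 0.000120), and *Eef2*, the elongation factor, rose from 1088 to 2038 CPM (edgeR adjusted p = 0.00545). *Ncl*, which encodes nucleolin, was at 2234 and 1693 CPM (edgeR adjusted p = 0.261). The list had 3 calls without the day 5 library of mouse 2 or 3 and 4 without that of mouse 1. *Eef2* was named after its values were seen, and its call was lost without the day 5 library of mouse 2 or 3.

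The spliced exons of several hosts are substrates of nonsense-mediated decay. Of 14 factors of that pathway tested, *Upf3b* fell, from a mean of 154 to 76.4 CPM (edgeR adjusted p = 0.00255, held in each of the 15 alternatives), and 13 did not pass, at a median of 0.03. The 1 call is 7.14% of the list, beside 12.0% over all genes tested. *Rbm8a*, of the exon junction complex, was at 249 and 243 CPM (edgeR adjusted p = 0.953). Without the day 7 library of mouse 1 or 3 the list had 2 calls.

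The snoRNAs themselves were largely uncounted here. The 7 hosts contain 31 annotated snoRNA genes, of which 27 are listed in the files and 1 had any count. That gene, *Snora73b* in an intron of *Snhg3*, had 32, 23 and 32 counts at day 5 and 3, 3 and 10 at day 7 (log2 fold change -2.44 ± 0.47, SE, edgeR adjusted p = 0.00210), the direction of its host. It is named because it is the 1 with counts, and its call held in each of the 15 alternatives. In GENCODE vM39 the other listed snoRNA genes all overlap exons of their host on the same strand, and *Snora73b* does not. Reads there could have been left out as ambiguous, so the missing counts cannot be laid to the assay alone.

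**Figure D5:**
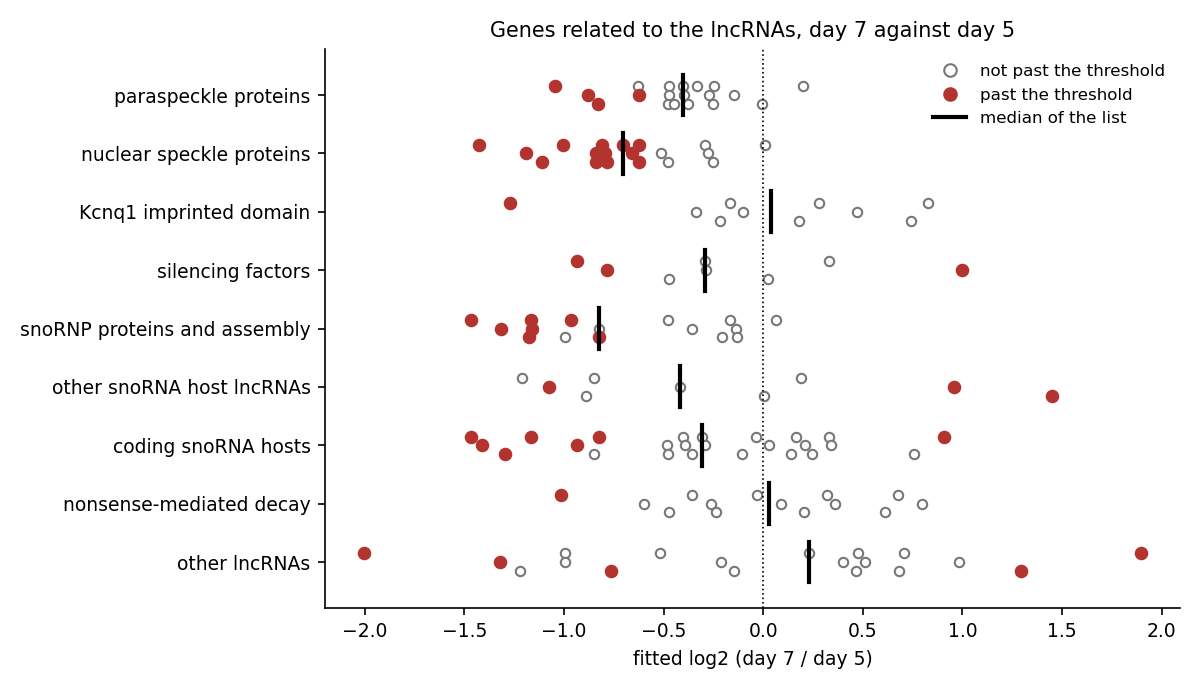
Fitted log2 change of day 7 over day 5 for each gene of 9 lists related to the lncRNAs; filled points passed the threshold, open points did not, and vertical bars are list medians, with 5 genes of 3 counts or fewer on a day left out. Nuclear speckle proteins and snoRNP proteins lie furthest to the left, with medians of -0.70 and -0.83, and the *Kcnq1* domain and nonsense-mediated decay factors lie around 0.

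The nearest protein-coding genes on either side of each lncRNA give 18 different neighbours, of which 16 could be tested. Of these 1 fell and 15 did not pass by edgeR, at a median log2 fold change of -0.23. Over all genes tested, 12.0% passed. The 1 that fell was *Rcc1*, the exchange factor of the Ran GTPase, which overlaps *Snhg3*. It was at 86.6, 58.7 and 67.7 CPM at day 5 and 45.3, 31.9 and 8.32 CPM at day 7 (log2 fold change -1.29 ± 0.36, SE, edgeR adjusted p = 0.0230). Its call was lost without any 1 of the day 5 libraries and without the day 7 library of mouse 2, leaving 0 calls, while 2 neighbours were called without the day 7 library of mouse 1 or 3. *Slc3a2*, the amino acid transporter subunit that starts 789 bases from *Snhg1* on the opposite strand, was at 164 and 202 CPM (edgeR adjusted p = 0.366), and *Syncrip*, the RNA-binding protein gene next to *Snhg5*, at 337 and 232 CPM (edgeR adjusted p = 0.0662). *Frmd8*, which lies 2598 bases from *Neat1* on the same strand, had a fitted log2 difference of -0.37 ± 0.22 (SE; adjusted p by edgeR 0.315). With the mouse as a block, *Kcnq1* was added to the neighbours called, which made 2. *Frmd8* was named after its values were seen.

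The levels of *Neat1*, *Kcnq1ot1* and *Gas5* over the 6 libraries were compared with those of 8172 genes that averaged 10 CPM or more. The libraries fall into 2 days, so a high correlation mostly follows the day and is given as a description. For *Neat1* the closest named genes were *Ubfd1* (Pearson r = 0.997), *Ltv1* (0.994) and *Gnl2* (0.994), the latter pair being ribosome assembly genes. For *Kcnq1ot1* they were the mitotic kinesin *Kif15* (0.999), the phosphate transporter *Slc20a1* (0.998) and *Ubap2* (0.997), and for *Gas5* the nuclear receptor gene *Nr1d2* (0.996), *Tchh* (0.991) and *Mfap3l* (0.991). Among the lncRNAs themselves, *Neat1* followed *Malat1* (0.982) and *Kcnq1ot1* (0.918), and *Gas5* followed *Zfas1* (0.921) and *Snhg12* (0.893). *Zfas1* ran opposite to *Kcnq1ot1* (-0.953), and *Snhg1* followed neither *Neat1* (0.098) nor *Gas5* (0.156).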

How the data were processed

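Per the labels, libraries were made with the Lexogen QuantSeq 3′ kit from polyA RNA. The authors aligned the reads to GRCm39 and deposited whole-number counts per Ensembl gene ID, not normalised. The aligner, annotation release, strand setting and treatment of reads with several matches are not given in the sources used here. Entries that name no gene held 13.7% to 14.4% of reads at day 5 and 9.12% to 9.74% at day 7 and were left out. Of 47643 IDs, 43465 (91.2%) matched GENCODE vM39, and 5 listed genes found no ID (*Snhg4*, *Snhg7*, *Snhg10*, *Nespas* and *Cytor*). The most abundant ID was among those without a match and held 12.9% to 18.6% of the counts in genes of a library. A run without it was among the alternatives. The members and gene lists were chosen with earlier results of these data known.

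The test took genes that had 1 count or more in 2 or more libraries and used edgeR 4.0.16 in R 4.3.3 (TMM, glmQLFit and glmQLFTest, robust = FALSE, two-sided, day as the only term), with Benjamini-Hochberg adjustment over all 15792. Past the threshold means an adjusted p below 0.05 together with a log2 fold change beyond 0.6 in either direction. CPM used TMM-scaled library sizes, and correlations used log2 CPM with a prior count of 2. Counts of 0 were read against a floor of 3 counts, which covers counting error only. Same-numbered libraries come from the same mouse per the titles. The deviations of such pairs from their day means correlated at 0.14, -0.10 and 0.16 over 8176 genes. Pairs of different mice correlated at -0.18 to 0.12, so the values do not set pairs of the same mouse clearly apart. No libraries of a day agreed within sampling noise (smallest chi-square per degree of freedom 1.99). Named were the members, called neighbours and the 2 most abundant neighbours, in each list the 3 called genes of smallest p and the most abundant gene not called, and for *Neat1*, *Kcnq1ot1* and *Gas5* the 3 named genes most correlated; some genes that this rule gives are not reported here, and others are said to be chosen after their values were seen or belong to a count of 5 or fewer. Alternatives were other scalings, filters and tests (DESeq2 1.42.0 among them), the mouse as a block, and each library left out.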

Additional observations from a re-analysis of the deposited data

How the results depend on the processing

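The log2 fold changes of the 10 members and the medians of both classes moved by less than the spread between replicates in all 15 alternatives, 9 other settings and 6 that leave out 1 library. Leaving out 1 of the 3 libraries of a day can hardly move a mean by more than that spread. The 6 runs therefore could not show instability by this measure, and in them *Snhg8* ran from -1.52 to -0.13. The call was the same in 11 of the 15 alternatives for *Gas5*, 12 for *Snhg3*, 13 for *Snhg8* and 14 for *Snhg12*. The other members kept theirs in all 15. The mouse block changed calls that include *Snhg8*, *Kcnq1*, *Snhg14*, *Snhg15*, *Ruvbl2*, *Rpl7a* and *Dleu2* among the members and related genes, and it gave 1322 genes higher and 1018 lower. When libraries were scaled by their totals alone, 950 genes came out higher and 1008 lower, 48.5% of calls higher against 60% with TMM, and the median over all genes was -0.0973 in place of -0.0073. Without 1 library, the genes higher ranged from 512 to 1449 (1140 with all) and those lower from 285 to 1127 (761 with all). In the same settings the calls ranged from 0 to 6 for paraspeckle proteins, 4 to 12 for nuclear speckle proteins, 0 to 2 for the *Kcnq1* domain, 0 to 4 for silencing factors, 3 to 8 for snoRNP proteins, 1 to 4 for other lncRNA hosts, 3 to 9 for coding hosts, 1 to 2 for decay factors and 0 to 2 for neighbours. Of the other settings, no filter gave 2 calls in the *Kcnq1* domain, 5 among other lncRNA hosts, 2 among decay factors and 2 among neighbours; the mouse block gave 2, 5 and 2 for the *Kcnq1* domain, other lncRNA hosts and neighbours; filterByExpr gave 1 for other lncRNA hosts and 0 for neighbours; the DESeq2 Wald test gave 1 for other lncRNA hosts; robust = TRUE gave 0 and library totals 2 for neighbours. Of 28 named genes that passed, 14 passed in every alternative that could test them. The small changes of *Rbm8a* (-0.03) and *Cd81* (-0.10) ranged from -0.0841 to 0.0174 and from -0.240 to 0.0489 when 1 library was left out, positive without day 7 replicate 2 and without day 7 replicate 3. The cause was not tested. Depth limits *Kcnq1ot1* most, which rests on 15 to 22 reads per day 7 library.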

Other observations

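Other well-known lncRNAs, outside both classes, moved in both directions. Of 26 listed, 22 could be tested, and *H19*, *Meg3* and *Mir22hg* rose, *Mir17hg*, *Lockd* and *Firre* fell and 16 did not pass, at a median log2 fold change of 0.43, or 0.23 without the 3 genes of 3 counts or fewer on a day. *H19*, an imprinted lncRNA, had 2 counts over the 3 libraries of day 5 and 46 over those of day 7 (edgeR adjusted p = 0.00291). *Mir17hg*, the precursor of a growth-promoting microRNA cluster, was at 14.0, 19.6 and 21.6 CPM at day 5 and 3.84, 6.94 and 2.45 CPM at day 7 (log2 fold change -2.00 ± 0.37, SE, edgeR adjusted p = 0.00135). *Mir22hg*, a microRNA host, was at 28.5, 25.1 and 29.5 CPM at day 5 and 51.8, 84.7 and 67.6 CPM at day 7 (log2 fold change 1.29 ± 0.23, SE, edgeR adjusted p = 0.00118). *Xist*, which coats the inactive X chromosome and is retained in the nucleus like *Neat1*, was at 436 and 394 CPM (log2 fold change -0.15 ± 0.19, SE, edgeR adjusted p = 0.677). The calls of *H19*, *Mir17hg* and *Mir22hg* held in every alternative that could test them.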
